A study of Rattus norvegicus with 24 samples.

Results

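The cAMP feedback and anchoring genes described here are 10 genes that were chosen by name: Crem, Creb1, Rgs2, Pde4a, Pde4b, Pde4d, Pde8a, Prkar1a, Prkar2b and Akap12. All 10 were present among the 21425 genes of the expression table, and all 10 passed the filter on low values in both experiments. The libraries held messenger RNA from wild-type Sprague Dawley rat testis cells of postnatal day 5, grown in a matrix gel in serum-free medium with every cell type of the testis present. In the baseline experiment, 3 technical replicates were sequenced from the fresh tissue isolate and from cultures on days 3, 5 and 7, all from 1 litter, and no hormone was added. In the induction experiment, cultures of 3 litters were kept for 10 days, and luteinizing hormone (LH, 50 mIU/mL) and follicle-stimulating hormone (FSH, 20 mIU/mL) were then given with fresh medium. Libraries were made just before (0 h) and 2, 12 and 48 h after, with 3 cultures pooled into 1 library for each litter and time. Libraries of 6 h were not analysed here. Nor was any library without hormone at 2, 12 or 48 h, so the effects of hormone, fresh medium and time in culture cannot be told apart.

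Both hormones act through receptors that couple to the stimulatory G protein and raise cyclic AMP (cAMP), LH in Leydig cells and FSH in Sertoli cells. cAMP releases the catalytic subunits of protein kinase A (PKA) from their regulatory subunits, and PKA phosphorylates CREB, which binds cAMP response elements in promoters. Several genes limit or place this signal. Phosphodiesterases break cAMP down, and A-kinase anchoring proteins hold PKA near its targets. RGS proteins shorten signals of other G proteins and are not taken here to act on the stimulatory one. Crem, a relative of Creb1, encodes activators and repressors of transcription, and a short repressor made from an internal Crem promoter, ICER, is itself induced by cAMP in many endocrine cells. The counts of Crem were made per gene, so the activator and repressor forms could not be separated.

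Promoter sequence is shown first for Crem because it was the only one of the 10 genes with a full cAMP response element near a start site. The windows hold the 250 bases before each start site listed by RefSeq (build GRCr8), written 5′ to 3′ on the gene's strand, and 21 windows were found for the 10 genes. The motifs searched on both strands were the full element TGACGTCA, which reads the same on both strands, and its shorter core TGACG, which lies inside the full element. Capitals mark these motifs, with CGTCA marking the core on the opposite strand. The 3 Crem windows, all on the plus strand, lie at chr17:58933816-58934065, chr17:58984547-58984796 and chr17:58985240-58985489 in that order. The Rgs2 window lies at chr13:58352667-58352916 on the minus strand and is shown for comparison, as Rgs2 fell with Crem in culture.
Crem window 1: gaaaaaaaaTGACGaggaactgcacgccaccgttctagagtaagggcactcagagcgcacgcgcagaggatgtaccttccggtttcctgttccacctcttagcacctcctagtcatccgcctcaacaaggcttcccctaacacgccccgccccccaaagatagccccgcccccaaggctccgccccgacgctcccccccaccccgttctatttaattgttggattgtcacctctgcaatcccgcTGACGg
Crem window 2: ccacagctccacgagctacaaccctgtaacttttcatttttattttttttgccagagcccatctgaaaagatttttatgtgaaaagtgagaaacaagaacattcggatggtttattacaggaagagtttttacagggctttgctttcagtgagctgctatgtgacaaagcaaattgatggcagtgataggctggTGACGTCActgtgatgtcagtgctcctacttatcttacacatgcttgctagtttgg
Crem window 3: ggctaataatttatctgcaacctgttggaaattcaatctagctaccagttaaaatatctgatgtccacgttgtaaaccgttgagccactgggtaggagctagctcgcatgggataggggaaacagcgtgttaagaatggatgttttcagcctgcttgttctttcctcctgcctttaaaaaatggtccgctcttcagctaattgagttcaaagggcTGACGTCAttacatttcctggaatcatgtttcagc
Rgs2: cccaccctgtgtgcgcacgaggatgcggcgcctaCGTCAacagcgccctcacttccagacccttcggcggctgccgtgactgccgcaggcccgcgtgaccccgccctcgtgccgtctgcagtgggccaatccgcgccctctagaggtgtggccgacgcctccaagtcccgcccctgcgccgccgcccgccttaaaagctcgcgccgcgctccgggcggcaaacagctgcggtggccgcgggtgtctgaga

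The first Crem window held 2 cores, 241 and 6 bases before the start, and no full element. The second held TGACGTCA 56 bases before its start, and the third held it 35 bases before its start. Of all 33469 RefSeq windows of this length, 1.59% held the full element and 18.2% the core. By gene, 1.78% and 20.0% of 27457 genes held them in any window. Of the 21 windows here, 2 held the full element and 10 the core. A gene with several windows had more chances of a match. Among the other genes, cores lay in windows of Creb1, Pde4a, Pde4d, Pde8a and Rgs2, and the one in the Rgs2 window lay 216 bases before the start on the opposite strand. No motif of this kind was found in these windows of Akap12, Pde4b, Prkar1a or Prkar2b. Of the genes with a core, Crem, Creb1, Pde4d and Rgs2 fell at day 3 of culture, and Pde4a and Pde8a rose. Of those without, Pde4b and Prkar2b fell, Akap12 rose and Prkar1a did not pass the test. Any link between motif and direction was not tested. A match describes these letters only, and no binding was measured in these libraries.

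Expression was deposited in CPM, a gene's reads scaled to 1 M reads of its library. The 12 baseline libraries held 17.3 to 30.4 M reads and the 12 induction libraries 15.8 to 28.3 M reads, so 1 read was worth 0.0329 to 0.0579 CPM and 0.0353 to 0.0633 CPM. The 10 genes had between 34 and 19449 reads in a baseline library and between 37 and 15714 in an induction library, with Pde4d and Pde4b at the low end. The CPM values carried no gene length, so levels were not compared between genes. On the first principal component, holding 71.7% of the variance of the baseline libraries, tissue lay apart from every culture library (76.4 to 78.9 against -33.2 to -17.8). The third day 5 library lay at -43.7 on the second component (9.14%), apart from the rest. Levels were not tested between the experiments, because some genes had values in only 1 of them. Ep300 and Crtc2, coactivators of CREB, had means of 40.7 and 78.9 CPM in tissue and were listed at 0 in all 12 induction libraries. Markers of the 7 cell types searched were detected in tissue and in culture, and Insl3, 1 of 7 Leydig cell markers, was also listed at 0 in every induction library.

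Between the fresh isolate and day 3 of culture, most of the 10 genes changed, and they moved in both directions. Crem, Pde4b and Rgs2 fell the most, Creb1, Pde4d and Prkar2b fell by less, Akap12 rose more than 3-fold, and Pde4a and Pde8a rose by about 1.5-fold. Only Prkar1a was not called. A gene was called where limma gave an adjusted p under 0.05, on log2(CPM + 1), a scale that understates changes of low genes. By that rule 3 of the 10 genes rose and 6 fell, beside 55.9% of all 13055 genes tested that were called (29.1% rose and 26.8% fell). Their median log2 fold change was -0.48, against 0.02 over all genes tested. The day 3 and tissue libraries did not overlap in 9 of the 10 genes, beside 67.2% of all genes tested. The replicates came from 1 litter, so the baseline p-values measure technical spread only. In bulk libraries, fewer cells of a type and less RNA per cell cannot be told apart.

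**Figure D1:**
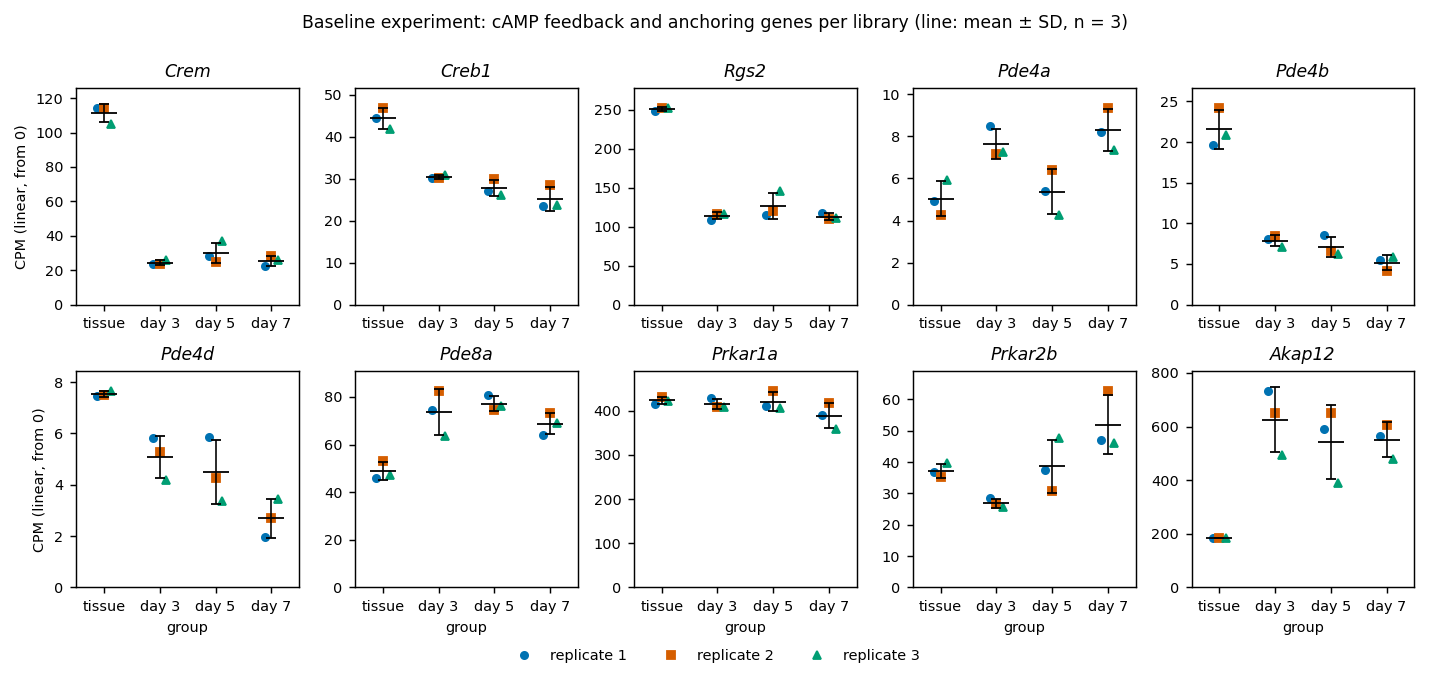
Level of each gene in the 12 baseline libraries in CPM on linear axes starting at 0, by group (tissue, day 3, day 5 and day 7). Points are libraries, lines are group means and bars are SD (n = 3). Crem, Rgs2 and Pde4b lie above every culture library in tissue, Akap12 lies below, and Prkar2b is lowest at day 3 and highest at day 7.

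Crem, the cAMP-responsive regulator, stood at 114, 114 and 105 CPM in the tissue libraries and at 23.7, 23.4 and 26.1 CPM at day 3. It remained at 28.4, 24.8 and 36.7 CPM at day 5 and at 22.3, 28.2 and 26.0 CPM at day 7. Every tissue library was far above every culture library, and the 3 culture days overlapped. The log2 fold change at day 3 was -2.14 ± 0.14 (SE, adjusted p = 3.79e-08), the 221st largest fall of 13055 genes. At days 5 and 7 it was -1.87 ± 0.14 (adjusted p = 1.21e-07) and -2.09 ± 0.14 (adjusted p = 3.89e-08). Crem is known for its activator forms in germ cells of the adult testis, and germ cell markers moved with it here. The summed level of 8 germ cell markers was 264 to 288 CPM in tissue and 42.8 to 60.1 CPM at day 3, with 0 rising, 7 of 8 falling and none at 0 in any library. The part of this change in that of Crem was not tested.

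Creb1, the constitutive relative that PKA phosphorylates, fell by less. Its tissue libraries held 44.4, 46.9 and 41.7 CPM, against 30.3, 30.1 and 30.9 CPM at day 3, 27.1, 30.0 and 26.2 CPM at day 5 and 23.4, 28.5 and 23.6 CPM at day 7. All tissue values lay above all culture values. The log2 fold changes were -0.53 ± 0.11 (adjusted p = 0.00110), -0.66 ± 0.11 (adjusted p = 0.000182) and -0.80 ± 0.11 (adjusted p = 3.35e-05) at days 3, 5 and 7. From day 3 to day 7 the difference of -0.27 ± 0.11 was not called (adjusted p = 0.259), although the 2 groups did not overlap. Chosen after the values were seen, the ratio of Crem to Creb1 within a library was 2.44 to 2.58 in tissue and 0.777 to 0.844 at day 3. Reads of Creb1 are uncertain to the extent that the gene overlaps Mettl21a, since the libraries did not keep strand.

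Rgs2, which speeds the shut-off of G protein signals, had 248, 252 and 252 CPM in tissue. It had 109, 117 and 117 CPM at day 3, 115, 119.7 and 145 CPM at day 5 and 118, 109.5 and 111 CPM at day 7. Tissue was again above all 9 cultures, which overlapped among themselves. The fall was -1.13 ± 0.09 at day 3 (adjusted p = 4.00e-07), -0.99 ± 0.09 at day 5 (adjusted p = 1.21e-06) and -1.15 ± 0.09 at day 7 (adjusted p = 2.73e-07). The third day 5 library, which stood apart on the second component, held the highest culture values of both Crem and Rgs2. Without it, 7 of the 10 genes were called at day 5, as with it.

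The phosphodiesterases that hydrolyse cAMP split in direction. Pde4b, a short-lived enzyme known in leukocytes and many other cells, had 19.6, 24.2 and 20.9 CPM in tissue and 8.04, 8.40 and 7.14 CPM at day 3. It had 8.52, 6.53 and 6.24 CPM at day 5 and 5.51, 4.08 and 5.89 CPM at day 7. The tissue libraries were at least 2-fold above every culture library, and day 7 lay below day 3 and day 5. Its log2 fold changes against tissue were -1.35 ± 0.17 (adjusted p = 1.55e-05), -1.48 ± 0.17 (adjusted p = 5.74e-06) and -1.88 ± 0.17 (adjusted p = 5.95e-07). Between days 3 and 7 the difference of -0.53 ± 0.17 was not called (adjusted p = 0.103). The summed level of 6 macrophage markers was 46.6 to 57.6 CPM in tissue, 23.5 to 33.4 CPM at day 3 and 19.1 to 21.3 CPM at day 7. Of 5 macrophage markers tested at day 3, 1 rose and 2 fell, and Cd163 was at 0 in 2 of 3 tissue libraries and in every culture library of this experiment. Their part in the change of Pde4b was not tested.

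Pde4d, of the same family and known as a target of PKA, had 7.45, 7.48 and 7.66 CPM in tissue. Day 3 gave 5.81, 5.27 and 4.18 CPM, day 5 gave 5.85, 4.28 and 3.39 CPM and day 7 gave 1.95, 2.69 and 3.45 CPM. Tissue lay above all cultures, and day 7 lay below day 3. The log2 fold change was -0.50 ± 0.20 at day 3, where the call was the narrowest of the 10 genes (adjusted p = 0.0493). It ended in 14 of 22 other settings, among them without any 1 of the 6 libraries compared (adjusted p from 0.0156 to 0.160 over all settings). At day 5 it was -0.66 ± 0.20 (adjusted p = 0.0123) and at day 7 -1.23 ± 0.20 (adjusted p = 0.000145). From day 3 to day 7, -0.73 ± 0.20 missed the threshold in limma (adjusted p = 0.0622), while DESeq2 called it (-0.85, adjusted p = 0.0487), as did limma without the third day 5 library (adjusted p = 0.0337).

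Pde4a, from the same family, went the other way. Its tissue libraries held 4.91, 4.27 and 5.92 CPM, against 8.49, 7.19 and 7.24 CPM at day 3, 5.39, 6.41 and 4.29 CPM at day 5 and 8.20, 9.36 and 7.36 CPM at day 7. Day 3 and day 7 lay above tissue without overlap, and day 5 overlapped tissue. The log2 fold change was 0.52 ± 0.17 at day 3 (adjusted p = 0.0190), 0.07 ± 0.17 at day 5 (adjusted p = 0.736) and 0.63 ± 0.17 at day 7 (adjusted p = 0.00623). The day 3 call ended without the first or second tissue library or the first day 3 library (adjusted p of 0.0532, 0.0833 and 0.0749). Within a library, and chosen after the values were seen, the ratio of Pde4b to Pde4a was 3.52 to 5.68 in tissue, 0.947 to 1.17 at day 3 and 0.435 to 0.800 at day 7. These ratios hold no length correction and compare libraries, not genes.

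Pde8a, a high-affinity cAMP phosphodiesterase known to restrain steroid production in Leydig cells, rose. It had 46.1, 53.2 and 47.0 CPM in tissue, 74.5, 82.6 and 63.6 CPM at day 3, 80.8, 74.3 and 76.3 CPM at day 5 and 64.1, 73.2 and 69.0 CPM at day 7. Every culture library was above every tissue library. The log2 fold changes were 0.58 ± 0.11 (adjusted p = 0.000502), 0.65 ± 0.11 (adjusted p = 0.000170) and 0.49 ± 0.11 (adjusted p = 0.00155). Of 7 Leydig cell markers tested at day 3, 2 rose and 3 fell, and their summed level was 300.2 to 304 CPM in tissue and 269.5 to 323 CPM at day 3.

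The PKA regulatory subunits come next. Prkar1a, a type I subunit, held 415, 431 and 422 CPM in tissue and 428, 408 and 409 CPM at day 3, and its groups overlapped. At day 5 it held 410.1, 445 and 405 CPM, and at day 7 390.3, 417 and 359 CPM. Its log2 fold changes of -0.03, -0.01 and -0.12 (each ± 0.08) were not called (adjusted p of 0.799, 0.918 and 0.218), with 95% intervals of -0.21 to 0.15, -0.19 to 0.17 and -0.30 to 0.06. Part of its signal is uncertain because the gene overlaps Fam20a.

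Prkar2b, a type II subunit that is typical of endocrine and fat cells, was the only one of the 10 that passed the test in opposite directions. It had 36.9, 35.2 and 39.7 CPM in tissue, 28.5, 26.6 and 25.6 CPM at day 3, 37.5, 30.9 and 47.6 CPM at day 5 and 47.1, 62.8 and 46.0 CPM at day 7. Day 3 lay below tissue and day 7 above it without overlap, and day 5 spread across tissue. The log2 fold change was -0.45 ± 0.15 at day 3 (adjusted p = 0.0229), 0.03 ± 0.15 at day 5 (adjusted p = 0.865) and 0.46 ± 0.15 at day 7 (adjusted p = 0.0204). Each of these calls depended on single libraries: the fall ended without tissue library 1 or 3 or day 3 library 2 or 3 (adjusted p of 0.0539, 0.0791, 0.0532 and 0.0575). The rise ended without the first or second tissue library or the second day 7 library (adjusted p of 0.0543, 0.0672 and 0.104), and without the latter it was 0.32.

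The direct comparison of day 7 with day 3 asked what changed once cells were in culture. Prkar2b rose by 0.91 ± 0.15 (adjusted p = 0.00673), from 26.9 ± 1.47 to 52.0 ± 9.41 CPM, and was the only gene of the 10 that was called. Of all genes, 3.79% were called (1.36% rose and 2.44% fell). The libraries of the 2 days did not overlap in 4 of the 10, beside 20.5% of all genes. An unadjusted p under 0.05 was reached by 4 of the 10, Prkar2b, Creb1, Pde4b and Pde4d, and by 14.8% of all genes. DESeq2 called 2 of the 10, Prkar2b and Pde4d, and 6.14% of all genes. Peritubular myoid cell markers rose in the same interval, with 2 of 6 called and a summed level of 2959 to 3463 CPM at day 3 and 4035 to 4769 CPM at day 7. None of the 6 was at 0 in any library. Sertoli cell markers stood at 3685 to 3968 CPM and 2913 to 3412 CPM, with 0 of 8 rising and 2 falling. The part of these changes in that of Prkar2b was not tested.

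Akap12, a scaffold that binds PKA and the beta-adrenergic receptor, had the highest fold increase of the 10. Its tissue libraries were nearly identical at 184, 183 and 183 CPM, and day 3 gave 734, 649 and 494 CPM. Day 5 gave 589.6, 651 and 389 CPM and day 7 gave 566, 607 and 480.5 CPM. The lowest culture library was more than 2-fold above the tissue libraries, and the culture days overlapped. The log2 fold change was 1.75 ± 0.18 at day 3, 1.53 ± 0.18 at day 5 (adjusted p = 8.48e-06) and 1.58 ± 0.18 at day 7 (adjusted p = 5.65e-06). Peritubular myoid cell markers rose as well, 5 of 6 at day 3, from a summed 1367 to 1522 CPM in tissue to 2959 to 3463 CPM, and so did 3 of 3 mesothelial markers tested, whose sum over 5 markers went from 226 to 246 CPM to 416 to 439 CPM. Of the mesothelial markers, Upk3b and Msln were at or near 0 in every tissue library. A marker under 1 CPM in tissue can pass the filter only through culture libraries, which favours a rise. Wt1 is on both the mesothelial and the Sertoli cell list, so these 2 lists are not separate. Sertoli cell markers also rose, 6 of 8 with 1 falling, from a summed 2502 to 2581 CPM to 3685 to 3968 CPM, and none was at 0 in any library. The part of these cell types in the rise of Akap12 was not tested.

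At day 5 the called genes were 2 that rose and 5 that fell, beside 59.9% of all genes (29.6% rose and 30.3% fell). At day 7 they were 4 and 5, beside 60% of all genes (28.5% rose and 31.4% fell). Crem, Creb1, Rgs2, Pde4b, Pde4d, Pde8a and Akap12 were called in the same direction on all 3 culture days. These 3 comparisons share the same 3 tissue libraries. The genes closest to Crem by correlation over the 12 baseline libraries were Fbxo30, Hsc70-ps1, Gpr85, Shmt1 and Stk31, with Pearson correlations of 0.992 to 0.994 among 11157 genes compared. The points fall into tissue and culture, so these values describe that split.

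**Figure D2:**
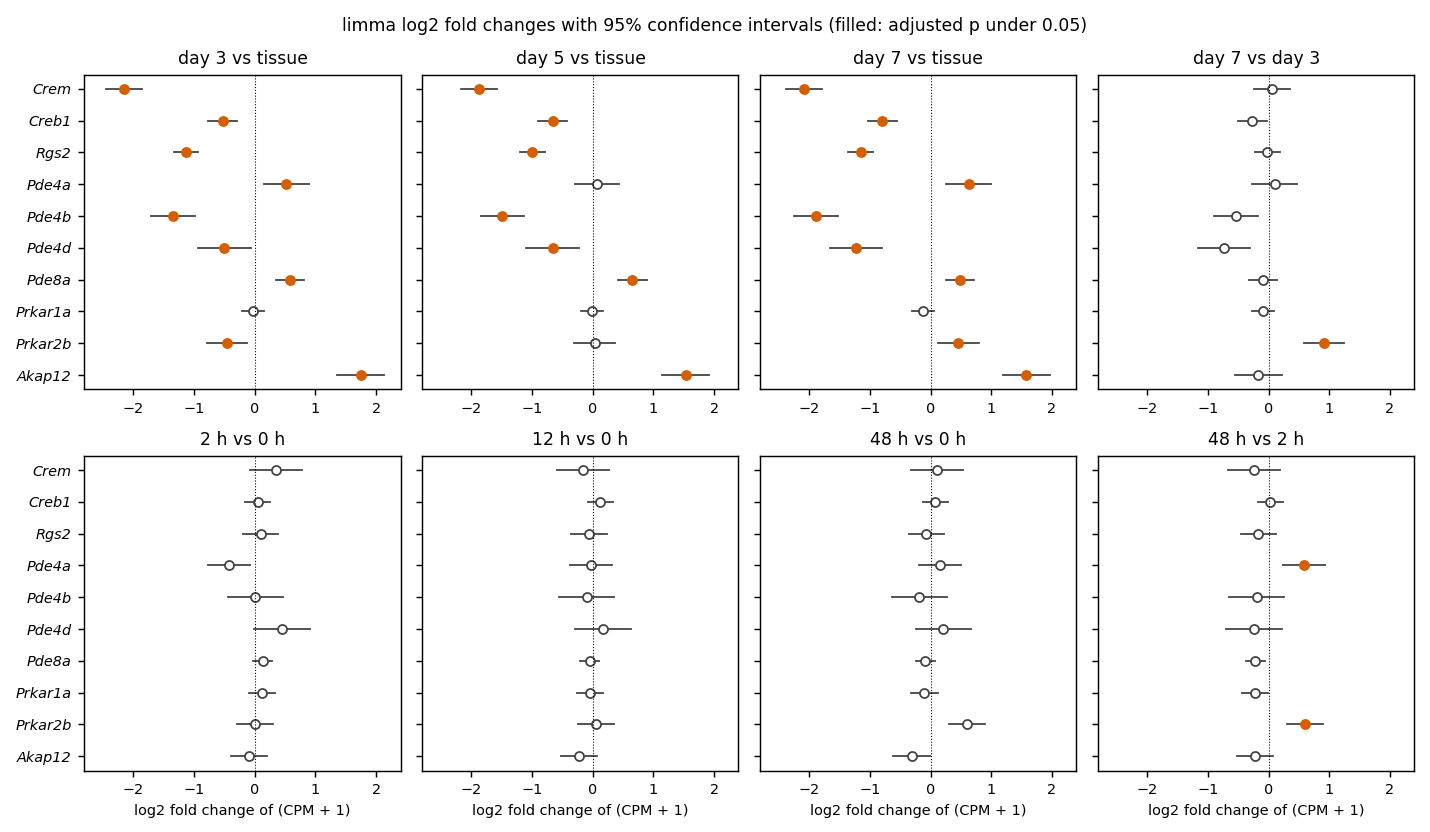
Log2 fold change of (CPM + 1) on the x axis with its 95% confidence interval for each of the 10 genes, in 8 of the 10 comparisons. Filled points had a limma adjusted p under 0.05. Crem, Creb1, Rgs2, Pde4b, Pde4d, Pde8a and Akap12 are filled on the same side of 0 on all 3 culture days, and the hormone comparisons with 0 h hold no filled point.

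Other genes of the pathway, from lists chosen by role, are given for day 3 against tissue, where 29.1% of all genes rose and 26.8% fell. Of 10 other A-kinase anchoring proteins, 6 rose and 1 fell. Akap5, which anchors PKA at the membrane, rose from 10.8 ± 1.66 to 54.1 ± 5.63 CPM (2.22 ± 0.21, adjusted p = 1.70e-06), and Akap2, Akap6 and Akap1 rose by 1.03 ± 0.12, 1.01 ± 0.20 and 0.62 ± 0.14. Of 6 other PKA subunits and inhibitors tested, 3 rose and 0 fell: the catalytic subunit Prkacb by 0.80 ± 0.10, the inhibitor Pkig by 0.73 ± 0.18 and the regulatory subunit Prkar2a by 0.55 ± 0.09. Of 8 CREB family members and coactivators, 1 rose and 2 fell, Creb3 by 0.46 ± 0.10 against -0.63 ± 0.20 for Crebbp and -0.37 ± 0.11 for Atf1. The medians of these lists were 0.46, 0.38 and -0.04, against 0.02 over all genes tested.

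Of 11 other phosphodiesterases tested, 3 rose and 2 fell. Pde2a, which cGMP stimulates, fell by 3.11 ± 0.20 on the log2 scale (adjusted p = 3.79e-08), with 21.6 ± 2.71 CPM in tissue and 1.62 ± 0.0280 CPM at day 3. Pde8b, the close relative of Pde8a, moved opposite to it, with -0.96 ± 0.17 (adjusted p = 0.000278), while Pde10a and the cGMP enzyme Pde5a rose by 1.20 ± 0.21 and 1.04 ± 0.15. Upstream, 5 of 9 adenylyl cyclases rose and 2 fell. Adcy6 and Adcy7 rose by 1.20 ± 0.11 and 1.06 ± 0.14 and Adcy4 by 0.60 ± 0.24, and Adcy3 had -1.08 ± 0.10. Of 8 G protein subunits, receptors and arrestins, 4 rose and 2 fell. The inhibitory subunit Gnai1 rose from 18.2 ± 1.21 to 68.8 ± 1.53 CPM (1.86 ± 0.12, adjusted p = 3.74e-08), Gnaq and Gnai2 rose by 0.56 ± 0.13 and 0.34 ± 0.09, and arrestin Arrb2 had -1.15 ± 0.20. The medians of these lists were 0.25, 0.30 and 0.18.

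Of 9 other RGS genes tested, 4 rose and 4 fell. Rgs20, Rgs10 and Rgs3 rose by 1.43 ± 0.15, 0.85 ± 0.19 and 0.81 ± 0.17, and Rgs4 had -1.54 ± 0.33. Among 5 other cAMP effectors tested, 1 rose and 1 fell. The salt-inducible kinase Sik1, which CREB induces and which holds back CREB coactivators, fell by 3.29 ± 0.14 (adjusted p = 1.28e-09), with 215 ± 0.962 CPM in tissue and 21.1 ± 1.81 CPM at day 3, and the exchange factor Rapgef3 rose by 0.49 ± 0.14. The medians of these lists were 0.52 and 0.23. Of 12 CREB target genes tested, 2 rose and 9 fell, with a median of -3.60, against 0.02 over all genes tested. CREB activity was not measured, and its part in these falls was not tested. At days 5 and 7, 8 and 6 of the 10 other anchoring proteins rose and 1 fell on each day. On each of these days 9 of the 12 CREB targets fell. Of all genes, 29.6% and 28.5% rose at days 5 and 7, and 30.3% and 31.4% fell. From day 3 to day 7, 2 of 9 adenylyl cyclases rose, Adcy5 by 0.80 ± 0.11 (adjusted p = 0.00214) and Adcy7 by 0.64 ± 0.14 (adjusted p = 0.0180), 2 CREB targets rose and 1 fell, and 0 genes of the other 7 lists were called.

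**Figure D3:**
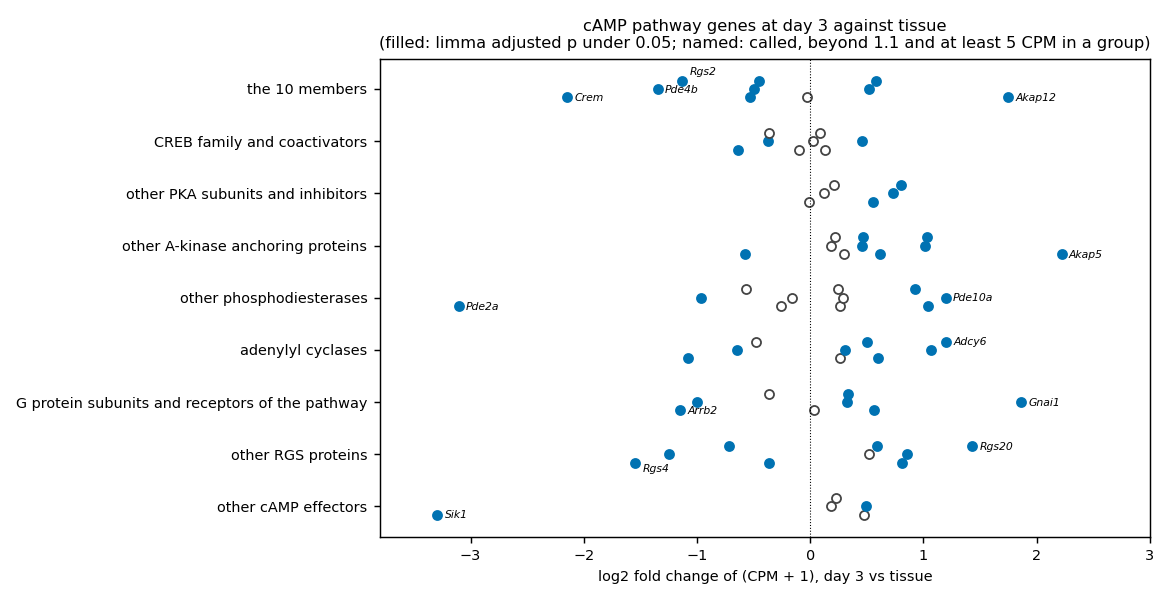
Log2 fold change of (CPM + 1) at day 3 against tissue for the 10 genes and 8 other gene lists of the cAMP pathway, 1 point per gene. Filled points had a limma adjusted p under 0.05, and named genes were called, moved by more than 1.1 and reached 5 CPM in a group. Crem lies at -2.14 and Akap12 at 1.75 in the top row, and most filled anchoring proteins lie to the right of 0.

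After LH and FSH, the comparison with 0 h asked whether these genes moved in cultures of day 10. With limma, 0 of the 10 were called at 2 h and 0 of 12450 genes (0%) were. An unadjusted p under 0.05 was reached by 1 of the 10, Pde4a, and by 1327 genes (10.7%). With litter as a block in limma it was reached by 4, Prkar1a, Crem, Pde4a and Pde4d, and by 18.3% of all genes. EdgeR gave 2 of the 10 and DESeq2 3, beside 13.6% and 13.8% of all genes. The 0 h and 2 h libraries did not overlap in 2 of the 10, Pde4a and Pde8a, beside 15.95% of all genes. None of the 10 was called at 2 h by edgeR (6 genes of all called), by DESeq2 (377 genes) or with litter as a block in limma (77 genes). Libraries of the same litter resembled each other, so within-litter values are given below. Induction p-values without the block measure a spread that includes differences between the 3 litters. Those with the block measure the spread left once litter differences are removed.

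Crem was high in a single library at 2 h. Litters 1, 2 and 3 had 18.5, 23.4 and 21.3 CPM at 0 h and 21.3, 40.8 and 22.4 CPM at 2 h, then 18.8, 19.2 and 18.3 CPM at 12 h and 23.02, 24.5 and 20.5 CPM at 48 h. Litter 2 at 2 h stood well above the other 11 libraries. Every 12 h value lay below every 2 h and 48 h value, and the other times overlapped. Within litters the fold at 2 h was 1.15, 1.74 and 1.05. The log2 difference of 0.35 ± 0.20 was not called (adjusted p = 0.589, or 0.252 with litter as a block, and 0.292 to 0.357 by DESeq2 and edgeR). Without litter 2 at 2 h it was 0.06. From 2 h to 12 h it was -0.50 ± 0.20 (adjusted p = 0.301), and -0.21 without that library. The same library had a summed level of 407 CPM over 7 Leydig cell markers, against 247 and 253 CPM in the other litters at 2 h. Litter 2 also had the highest sum of the litters at 0, 12 and 48 h (284, 347 and 387 CPM). Sertoli cell markers at 2 h summed to 2458 CPM in litter 2, against 2152 and 1935 CPM in litters 1 and 3. Their sum was highest in litter 2 at the other times as well. At 2 h the endothelial and mesothelial sums were also highest in litter 2, and the peritubular myoid, macrophage and germ cell sums were lowest there. The part of any of these cell types in the level of Crem was not tested.

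**Figure D4:**
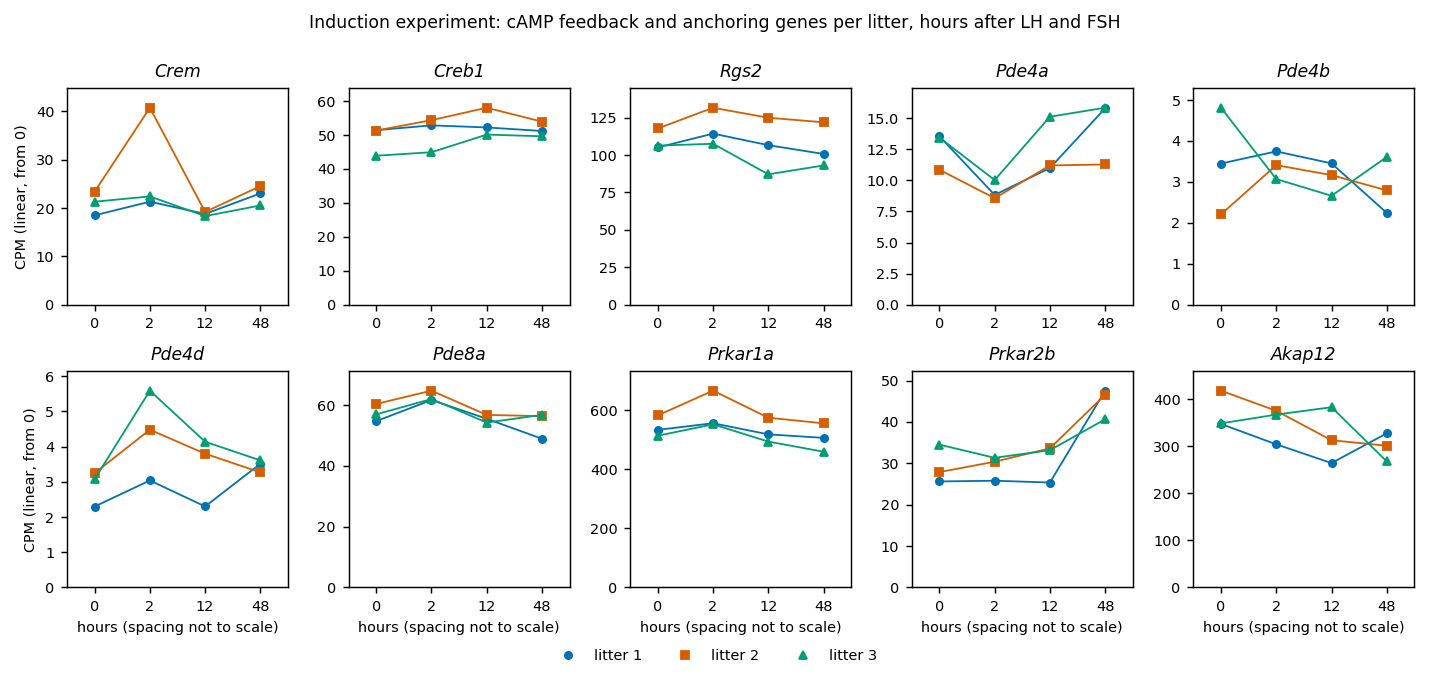
Level of each gene in the 12 induction libraries in CPM on linear axes starting at 0, against hours after LH and FSH (evenly spaced, not to scale), with 1 line per litter. Prkar2b is highest at 48 h in each of the 3 litters, Pde4a is lowest at 2 h in each litter, and Crem reaches 40.8 CPM at 2 h in litter 2 only.

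The 3 Pde4 genes at 2 h are given next. Pde4a had 13.6, 10.9 and 13.5 CPM at 0 h and 8.83, 8.57 and 10.0 CPM at 2 h, lower in 3 of 3 litters (folds of 0.652, 0.789 and 0.746) and without overlap. Its log2 difference of -0.42 ± 0.16 was not called (adjusted p = 0.352, and 0.0829 with litter as a block). Pde4d had 2.30, 3.25 and 3.08 CPM at 0 h and 3.04, 4.48 and 5.59 CPM at 2 h. It was higher in 3 of 3 litters (folds of 1.32, 1.38 and 1.82), though the groups overlapped. The difference, 0.45 ± 0.21, was not called (adjusted p = 0.470, and 0.147 with the block) and rested on as few as 48 reads in a library. Pde4b, with 3.45, 2.21 and 4.81 CPM at 0 h and 3.75, 3.41 and 3.07 CPM at 2 h, was higher in litters 1 and 2 and lower in litter 3 (0.01 ± 0.21, adjusted p = 0.998).

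The genes closest to Pde4d by the same measure over the 12 induction libraries were Mob1b, LOC108348201, Mex3b, AABR07034438.1 and Abl2, with Pearson correlations of 0.823 to 0.862 among 10645 genes. They are the highest of many values over few libraries, for a gene with few reads. No test was run on them, and unrelated genes can reach such values. Pde8a had 54.7, 60.4 and 57.0 CPM at 0 h and 61.7, 64.8 and 62.0 CPM at 2 h, higher in 3 of 3 litters without overlap. Its log2 difference of 0.13 ± 0.07 was not called (adjusted p = 0.584, and 0.275 with litter as a block). Creb1, Rgs2, Prkar1a, Prkar2b and Akap12 had differences at 2 h between -0.09 and 0.12, with adjusted p of 0.770 or more. With litter as a block their adjusted p was 0.229 (Prkar1a) or more, and 0.472 for Rgs2. For Rgs2 the values were 105, 118 and 106 CPM at 0 h and 114, 132 and 108 CPM at 2 h, and the 95% interval of the difference was -0.19 to 0.39.

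The later values of these genes were as follows. Rgs2 had 107, 125 and 87.1 CPM at 12 h and 101, 121.9 and 93.0 CPM at 48 h, and its groups overlapped at all times. Creb1 had 51.4, 51.3 and 43.9 CPM at 0 h, 52.9, 54.4 and 44.9 CPM at 2 h, 52.2, 58.1 and 50.1 CPM at 12 h and 51.2, 54.0 and 49.6 CPM at 48 h, and all times overlapped. Prkar1a had 533, 582 and 513 CPM at 0 h and 518, 574 and 493 CPM at 12 h, with litter 2 the highest at every time. Pde8a had 55.5, 56.8 and 54.3 CPM at 12 h, below every 2 h library. Pde4d had 2.30, 3.80 and 4.14 CPM at 12 h and 3.51, 3.27 and 3.61 CPM at 48 h, and Pde4b 3.45, 3.17 and 2.66 CPM and 2.24, 2.79 and 3.61 CPM. No difference of Pde4d or Pde4b between the 4 times was called by limma, with or without litter as a block. Akap12 had 304, 375 and 367 CPM at 2 h and 264, 313 and 383 CPM at 12 h, overlapping 0 h.

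At 12 h, 0 of the 10 and 0 genes of all (0%) were called against 0 h, with 0 of the 10 and 311 genes at an unadjusted p under 0.05. EdgeR, DESeq2 and limma with litter as a block called 0, 9 and 0 genes of all, none of them among the 10. The 10 differences at 12 h lay between -0.23 (Akap12) and 0.17 (Pde4d), each with adjusted p = 0.993. From 2 h to 12 h, 0 of the 10 and 0 genes of all (0%) were called by limma. Crem, Pde4a and Pde8a had an unadjusted p under 0.05, beside 1654 genes (13.3%). With litter as a block Prkar1a and Rgs2 reached it as well, 5 of the 10, beside 23.1% of all genes. The libraries of these times did not overlap in 3 of the 10, beside 16.3% of all genes. EdgeR and DESeq2 called 11 and 387 genes and limma with litter as a block 368, none of them among the 10.

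Prkar2b was the member with the largest difference at 48 h. It had 25.6, 27.9 and 34.5 CPM at 0 h, 25.8, 30.4 and 31.3 CPM at 2 h, 25.4, 33.6 and 33.2 CPM at 12 h and 47.6, 46.6 and 40.7 CPM at 48 h. The 3 libraries of 48 h were above the other 9, which overlapped. Within litters the fold from 0 h to 48 h was 1.86, 1.67 and 1.18. The log2 difference of 0.61 ± 0.14 missed the threshold in limma (adjusted p = 0.0956), and 0 of the 10 were called there, beside 0.394% of all genes (0.345% rose and 0.0482% fell). With litter as a block its adjusted p was 0.0171 (4.35% of all genes called), and DESeq2 gave 0.00514 (3.37% called) and edgeR 0.0937. An unadjusted p under 0.05 was reached by Prkar2b and Akap12 and by 1614 genes of all. The 0 h and 48 h libraries did not overlap in 3 of the 10, beside 20.4% of all genes.

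Cell type markers at 48 h are given beside Prkar2b. The summed level of 7 Leydig cell markers was 226 to 284 CPM at 0 h and 269.5 to 387 CPM at 48 h, with 0 of 6 tested called (2 rose with the block). That of 6 macrophage markers was 20.4 to 59.3 CPM and 21.8 to 129.7 CPM, with 0 of 5 tested called (1 rose with the block). With the block, 1 of 8 Sertoli cell markers also rose and 1 of 6 peritubular myoid markers fell. No marker of the other cell types was called in either fit. At 48 h the macrophage sum was 112 CPM in litter 1, 21.8 CPM in litter 2 and 129.7 CPM in litter 3, where Prkar2b stood at 47.6, 46.6 and 40.7 CPM. Cd163 was at 0 in each of these 3 libraries. The part of any of these cell types in the level of Prkar2b was not tested. Its ratio to Prkar1a in the same library, chosen after the values were seen, was 0.0479 to 0.0673 at 0 h and 0.0840 to 0.0940 at 48 h. Akap12 had 347, 418 and 349 CPM at 0 h and 328, 301 and 268 CPM at 48 h, without overlap, and its difference of -0.31 ± 0.14 was not called (adjusted p = 0.368).

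Between 2 h and 48 h, 2 of the 10 rose and 0 fell, beside 7.96% of all genes called (4.14% rose and 3.82% fell). The libraries of these times did not overlap in 3 of the 10, beside 26.5% of all genes. Prkar2b rose by 0.61 ± 0.14 (adjusted p = 0.0214), with folds of 1.84, 1.53 and 1.30 in the litters, and the call ended without litter 1 at 2 h or litter 1 at 48 h (adjusted p of 0.0837 and 0.0978). Pde4a rose by 0.58 ± 0.16 (adjusted p = 0.0447). It went from 8.83, 8.57 and 10.0 CPM at 2 h through 11, 11.2 and 15.1 CPM at 12 h to 15.8, 11.3 and 15.9 CPM at 48 h. Its 48 h values overlapped those of 0 h, with 0.16 ± 0.16 between them (adjusted p = 0.697). The Pde4a call ended in 14 of 22 other settings, edgeR among them, with adjusted p from 0.00587 to 0.170. The call was lost without any 1 library of 2 h, without litter 1 or 3 at 48 h, and without litter 1 or 3 at 0 h or litter 1 or 2 at 12 h, which enter only through the shared spread.

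With litter as a block, 4 of the 10 were called between 2 h and 48 h, beside 22.1% of all genes in the same fit. Beside Prkar2b (adjusted p = 0.00539) and Pde4a (0.00587), Prkar1a fell by 0.22 on the log2 scale (adjusted p = 0.0111, against 0.196 without the block) and Pde8a fell by 0.22 (0.0256, against 0.0874). Prkar1a had 555, 665 and 552 CPM at 2 h and 506, 555 and 459 CPM at 48 h, lower in 3 of 3 litters. Pde8a had 49.0, 56.4 and 56.8 CPM at 48 h, also lower than at 2 h in 3 of 3 litters. From 12 h to 48 h, 0 of the 10 and 0 genes of all (0%) were called by limma, and 2 of the 10 did not overlap, beside 11.8% of all genes. Prkar2b alone of the 10 reached an unadjusted p under 0.05 there, beside 846 genes of all (0.54 ± 0.14, adjusted p = 0.308, and 0.0600 with the block), and edgeR and DESeq2 called 0 and 85 genes, none of them among the 10. The 2 h libraries enter several of these comparisons, which are therefore not separate evidence.

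Of the other pathway genes between 2 h and 48 h, Adcy6 (0.50 ± 0.09, adjusted p = 0.00928), Akap9 (0.51 ± 0.12), Akap1 (0.40 ± 0.10) and Prkar1b (0.37 ± 0.10) rose. These were 1 of 8 adenylyl cyclases, 2 of 10 other anchoring proteins and 1 of 6 other PKA genes tested. Adcy6 stood at 145 ± 9.17 CPM at 0 h, 114 ± 10.4 at 2 h, 143 ± 13.9 at 12 h and 162 ± 9.17 at 48 h. With the block, where 22.1% of all genes were called, 3 cyclases and 3 anchoring proteins rose, 2 PKA genes rose and 1 fell, 1 phosphodiesterase rose, and 1 gene each of the CREB family and of the other effectors fell. No G protein, receptor or RGS gene was called in either fit. Of 12 CREB targets, 0 rose and 3 fell, and with the block 1 rose and 6 fell. Beside them, 3 of 6 Leydig cell and 3 of 5 macrophage markers rose with the block and 0 without it. Without the block, 1 of 6 peritubular myoid markers rose and no other marker was called. With it, 1 Sertoli and 1 myoid marker rose, and 1 germ cell, 1 endothelial and 1 myoid marker fell. Star is on the CREB target and Leydig cell lists, and Inha on the CREB target and Sertoli cell lists. Fshr and Lhcgr are on the receptor list and also Sertoli and Leydig cell markers, so these lists are not separate. In the comparisons with 0 h, 0 genes of the 9 pathway lists were called by limma. With the block, 1 CREB target rose and 1 fell at 48 h.

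The spans over the groups differed between the experiments. For Crem, the highest group mean was 4.56-fold the lowest in the baseline experiment and 1.501-fold in the induction experiment. For Pde4b these values were 4.18 and 1.21, for Akap12 3.41 and 1.24 and for Rgs2 2.23 and 1.12. For Pde4a they were close, 1.65 and 1.57, and for Prkar2b 1.93 and 1.54. Prkar1a had the smallest span in the baseline experiment (1.09) and Creb1 in the induction experiment (1.09). These spans are descriptions with no test, as the experiments differ in litters and culture age and may differ in counting.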

How the data were processed

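CPM values for 21425 genes in 24 libraries were deposited by the authors. Per the labels' protocols, poly-A RNA was made into libraries that do not keep strand and sequenced on a NovaSeq instrument. Per the submitters' processing notes, STAR aligned the reads to mRatBN7.2. For its version, the counter and the gene models: not given in the sources used here. All values were whole multiples of 1 read within 0.01 read, so reads were recovered, and 2.93 to 3.98% of baseline and 4.25 to 4.71% of induction reads lay outside the listed genes. Library totals are given with the results, and intervals or floors from them cover counting error only.

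Limma 3.58.1, run in R 4.3.3, was fitted to log2(CPM + 1) of each experiment, with group means and an empirical Bayes trend. The filter kept genes that reached 1 CPM in 3 or more libraries. The tests were two-sided, with Benjamini-Hochberg adjustment across genes for each of 10 comparisons. The alternatives were pseudocounts of 0.1 and 0.5 CPM, no filter, a filter of 5 CPM, TMM and DESeq2 size factor scaling, edgeR 4.0.16 and DESeq2 1.42.0 on recovered reads, only the 2 groups compared, the replicate block and each library left out. The fit was tested on simulated data and recovered 100 of 100 changes of 2-fold and of 4-fold in each of the comparisons simulated. These data held no litter differences and the same spread beyond counting error for all genes. They therefore do not show the power for smaller changes in the real libraries. The genes, the lists and the tests were chosen with earlier results of these data known. Pathway genes were named by rule: up to 4 called genes per list with the largest change and at least 5 CPM in a group, given for day 3 against tissue, day 7 against day 3 and 48 h against 2 h.

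The labels give the litters of the induction libraries. After group means were removed, the correlation over genes of 18 same-litter pairs had a median of 0.482 (-0.0119 to 0.747, 16 above 0.1). The 18 baseline pairs with the same number had a median of -0.000715 (-0.349 to 0.344, 5 above 0.1) and were not treated as paired. Within groups, replicates differed by more than counting error (chi-square per gene of 6.27 to 72.3 and 15.0 to 54.7). Promoter windows came from RefSeq with GRCr8 coordinates. The expression files use another build and carry no coordinates here. Gene overlaps were read from the RefSeq GRCr8 annotation, and Crem, Pde4a, Pde4b, Pde4d and Pde8a overlap noncoding genes there.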

Additional observations from a re-analysis of the deposited data

Results flagged for a closer look

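Prkar2b had opposite changes at 2 culture days against the same tissue libraries, -0.45 at day 3 and 0.46 at day 7 on the log2 scale. The difference between them, tested as day 7 against day 3, was 0.91 (limma adjusted p = 0.00673, higher in 3 of 3 day 7 libraries than in any day 3 library). The 3 replicates of each day were technical and came from 1 litter.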

How the results depend on the processing

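Over 100 comparisons of single genes and 2188 alternative values, 2142 kept their direction and side of the threshold or stayed uncalled, 40 lost a call, 6 gained one and 0 reversed a called direction. Among uncalled values 61 changed sign. Of 28 calls, 22 held in every setting run. Pde4d and Pde4b had the fewest reads of the 10, down to 34 and 37 in a library.

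The replicate block, with litters paired in the induction experiment, gave 1 of the 10 genes at 48 h against 0 h (main 0) and 4 at 48 h against 2 h (main 2). Over all genes it gave 77 (main 0) at 2 h, 541 (main 49) at 48 h, 368 (main 0) from 2 h to 12 h, 89 (main 0) from 12 h to 48 h and 2756 (main 991) from 2 h to 48 h. In the baseline experiment, where numbers do not pair, the block moved the day 3 count of the 10 from 9 to 8 through Pde4d (adjusted p = 0.0695) and all genes from 7299 to 7229. The block changed no other call of the 10 genes.

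DESeq2 on reads called 2 of the 10 at day 7 against day 3 and 1 at 48 h against 0 h, and over all genes 802 (main 495) and 419 in those comparisons, 377 at 2 h, 9 at 12 h, 387 from 2 h to 12 h, 85 from 12 h to 48 h and 2032 from 2 h to 48 h. Between 2 h and 48 h, no filter, TMM scaling, DESeq2 size factors, edgeR and only the 2 groups each left 1 of the 10. TMM, size factors and edgeR each gave 6 genes at 2 h against 0 h and 11 at 12 h against 2 h. Only the 2 groups gave 317 genes at day 7 against day 3, 2 at 48 h against 0 h and 285 at 48 h against 2 h, and no filter gave 14 at 48 h against 0 h. The cause of these differences was not tested. Of genes called at day 7 against day 3, 35.8% were higher at day 7, and 49.8% with TMM or 50.1% with size factors. No scaling moved a median over all genes by more than 0.1.

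Leaving out 1 replicate at a time gave 6 to 9 of the 10 genes at day 3 (6 without the first tissue library), 7 to 7 at day 5, 8 to 9 at day 7, 1 to 2 at day 7 against day 3 and 0 to 2 at 48 h against 2 h (0 without litter 1 at 2 h or 48 h), and 0 in the other comparisons. Over all genes it gave 5946 to 7931, 6459 to 7970 and 6573 to 8449 at days 3, 5 and 7, 181 to 827 at day 7 against day 3 (181 without the first day 3 library and 827 without the third day 5 library), 7 to 49 at 48 h against 0 h (7 without litter 1 at 0 h), 0 to 9 at 12 h against 2 h (9 without litter 3 at 2 h) and 215 to 1132 at 48 h against 2 h (215 without litter 1 at 48 h).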
